A study of Mus musculus with 6 samples.

Results

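Transcription factors help to give brain endothelial cells their identity, and 9 factors were followed here by name through the gene table of 54532 genes. They are the ETS factors Erg, Fli1 and Ets1, the SOXF factors Sox7, Sox17 and Sox18, and the forkhead factors Foxf2 and Foxq1. Set beside these is the Iroquois homeobox factor Irx3, whose part in that identity is not shown here. All 9 were chosen by their FPKM levels and by their bezafibrate-minus-untreated differences in these same libraries, so both are given as a description with no test. All 9 had an FPKM (fragments per kilobase of gene, scaled to library size) of 1 or more in 3 or more libraries, as did 11277 genes in all. Living cells that carried CD31 and lacked both CD45 and PDGFRb were sorted by FACS from perfused brains of mice aged 12 to 16 weeks. Every mouse carried Df(h22q11)/+, a heterozygous deletion that models the human 22q11.2 deletion syndrome, so no group here shows the factors without the deletion. Bezafibrate mice (3 libraries: F_1, M_1 and M_2) ate chow with 0.5% bezafibrate, a lipid-lowering agonist of PPAR receptors, for 4 weeks, and untreated mice (3 libraries: F_1, F_2 and M_1) ate irradiated base chow for the same time. A library is a pool from 3 brains matched for sex and chow (F, female; M, male), so errors and p-values measure the spread between pools.

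ETS proteins bind DNA through a shared winged-helix domain, and Erg and Fli1 keep endothelial genes such as the adhesion molecule VE-cadherin switched on. SOXF proteins bend DNA with an HMG box and act in arterial, venous and lymphatic specification, often beside ETS factors and upstream of Notch signalling. Foxf2 and Foxq1 are forkhead factors enriched in the vessels of the brain, where Foxf2 is needed in mice for an intact blood-brain barrier and is also made by pericytes. Irx3 patterns the neural tube and the heart's conduction system in mice, and has been described as promoting angiogenesis in human microvascular endothelial cells.

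Because these families share their DNA-binding domains, a read can resemble more than one of them. For chosen pairs of relatives, the most alike coding stretches of 75 bases, which is the read length, are printed as examples of what a single read could tell apart. Not every pair of relatives was compared in this way. They come from GENCODE M21 transcripts (GRCm38), 5′ to 3′ on the coding strand, and capitals mark the bases that differ within a pair. Between Erg (coding bases 1082 to 1156) and Fli1 (coding bases 971 to 1045), 6 bases differ.
Erg: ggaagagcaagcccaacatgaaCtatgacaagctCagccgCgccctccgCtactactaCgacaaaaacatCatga
Fli1: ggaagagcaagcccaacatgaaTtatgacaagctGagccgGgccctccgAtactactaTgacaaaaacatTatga
Between Sox17 (coding bases 337 to 411) and Sox18 (coding bases 370 to 444), 7 bases differ.
Sox17: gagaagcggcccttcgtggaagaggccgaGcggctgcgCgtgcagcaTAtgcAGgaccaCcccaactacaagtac
Sox18: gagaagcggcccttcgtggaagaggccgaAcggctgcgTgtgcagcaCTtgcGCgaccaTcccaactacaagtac
Foxf2 (coding bases 415 to 489) is closer to its paralog Foxf1 (coding bases 259 to 333), from which 2 bases differ.
Foxf2: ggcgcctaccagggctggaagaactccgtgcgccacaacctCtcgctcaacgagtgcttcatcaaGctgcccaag
Foxf1: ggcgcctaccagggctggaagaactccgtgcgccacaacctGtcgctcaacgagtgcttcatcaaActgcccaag
Irx3 (coding bases 505 to 579) likewise differs from its chromosomal neighbour Irx5 (coding bases 451 to 525) at 2 bases.
Irx3: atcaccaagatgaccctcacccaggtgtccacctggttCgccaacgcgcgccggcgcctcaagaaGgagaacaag
Irx5: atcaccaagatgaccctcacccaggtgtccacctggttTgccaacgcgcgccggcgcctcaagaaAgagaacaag

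Shared stretches of 75 bases were sought between transcripts read 5′ to 3′ only, so genes overlapping on opposite strands were not counted. In that search Erg, Fli1, Ets1, Sox7, Sox17, Sox18, Foxf2 and Foxq1 shared no stretch with another annotated gene. Irx3 shared 14 of its 2762 stretches, or 0.507%, with Irx6, which had 0 reads in every library. Exons on the opposite strand overlapped 66.1% of the exon bases of Foxq1 (A530084C06Rik, listed at 0), 16.8% of those of Sox17 (Gm37587, at most 0.677 FPKM), 4.49% of those of Irx3 (Irx3os, at most 0.107 FPKM) and 4.15% of those of Foxf2 (Gm27516, listed at 0). The sources used here do not say whether counting used strand, so reads of an overlapping pair may not be separable.

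Depth was similar across libraries, between 16858130 and 20228619 reads, and 11060 to 11387 genes reached an FPKM of 1. Bezafibrate F_1 and untreated M_1 stood apart on the first principal component (39.3% of the variance), at 24.4 and 30.3, while the other libraries lay between -22.6 and 1.62. Sex labels fitted the sex-linked genes in every library: Ddx3y was at 22.1 to 32.5 FPKM in male libraries and 0 in female ones. Summed FPKM of 10 endothelial markers was 3778 to 5030 in bezafibrate libraries and 4228 to 5181 in untreated ones. Pericyte markers summed to 184 to 263 FPKM in bezafibrate libraries and 189 to 340 FPKM in untreated ones. Of the markers that the sort excluded, Ptprc, which encodes CD45, reached at most 0.0349 FPKM. Pdgfrb, which encodes PDGFRb, was at 7.67 to 9.13 FPKM in bezafibrate libraries and 6.29 to 12.2 FPKM in untreated ones.

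The 9 factors spanned a wide range of levels, led by Sox18 at 318 ± 110 FPKM and closed by Irx3 at 17.6 ± 7.70 FPKM (SD, n = 6 libraries). Sox17 followed Sox18 at 145 ± 16.7 FPKM and lay below it in 6 of 6 libraries. Foxf2 came next at 129 ± 6.99 FPKM and was below Sox17 in 4 of 6 libraries. Those neighbours overlapped in range, so the order of Sox17 and Foxf2 is within their spread. Foxq1 (76.5 ± 8.81 FPKM), Erg (76.0 ± 8.92 FPKM) and Sox7 (72.1 ± 17.4 FPKM) formed a group whose ranges overlapped and whose order is not separable. None of these 3 reached the range of Foxf2. Fli1 (39.8 ± 7.01 FPKM) was below Sox7 in 6 of 6 libraries, though their ranges overlapped, and its range lay wholly above that of Ets1 (29.7 ± 4.23 FPKM). Ets1 was above Irx3 in 5 of 6 libraries. The exception was untreated M_1, where Irx3 was at 25.8 FPKM and Ets1 at 22.5 FPKM.

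**Figure D1:**
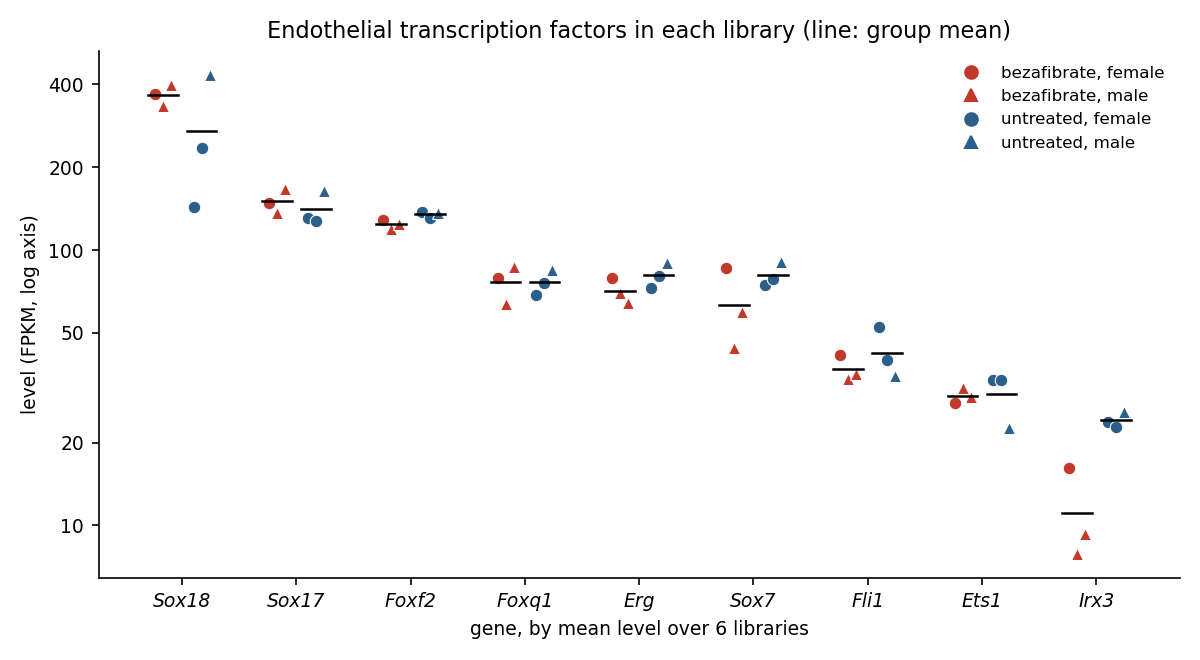
Level of each factor in each library, in FPKM on a log axis, with genes ordered by their mean over 6 libraries; points are libraries and black lines group means. Irx3 has all 3 bezafibrate points (7.88 to 16.2) below all 3 untreated ones (22.8 to 25.8), and Sox18 has its widest spread in untreated libraries (143 to 433).

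Within their families, most of the factors were the leading genes. The table labels transcription factors by family. Erg ranked first and Fli1 second of 26 ETS genes by mean FPKM, and with Ets1 they made up 46.7% of the family's summed FPKM. Sox18 and Sox17 ranked first and second of 50 HMG-box genes, Sox7 had rank 4, and the 3 SOXF genes made up 59.9%. Of 44 forkhead genes Foxf2 had rank 1 and Foxq1 rank 3, at 39.3% together. Irx3 had rank 4 of 232 homeobox genes, behind Cers2 and Cers5, ceramide synthases that carry a homeobox-like domain, and Hhex, a homeobox factor of early blood and vessel development. Its share of the homeobox FPKM was 7.25%, 3.62% and 4.20% in the bezafibrate libraries (F_1, M_1, M_2), against 9.47%, 9.30% and 10.4% in untreated F_1, F_2 and M_1.

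**Figure D2:**
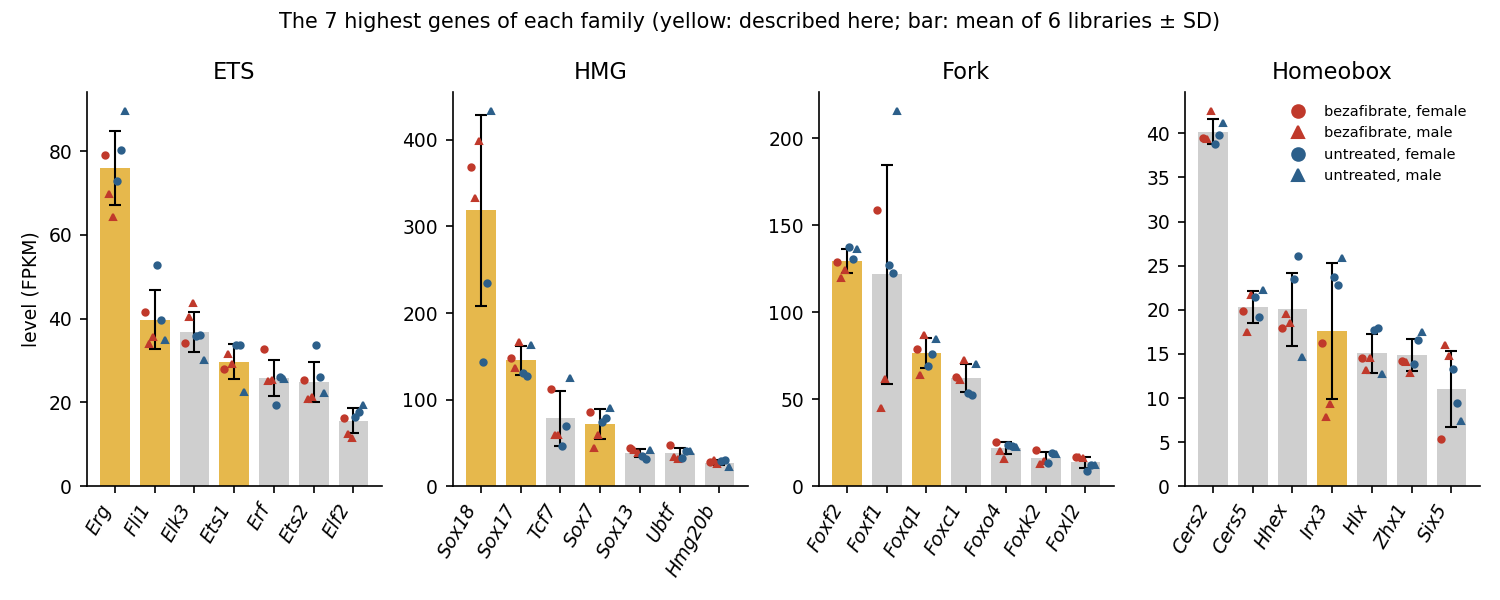
The 7 genes of highest mean level in the ETS, HMG-box, forkhead and homeobox families (bars, mean FPKM of 6 libraries ± SD; points, libraries; yellow bars, the factors described here). Erg, Sox18 and Foxf2 lead their families, while Irx3, at 17.6 FPKM, has rank 4 in its own.

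The factors differed in their spread between libraries. Foxf2 was among the steadiest genes of the table, with a coefficient of variation of 5.40% over 6 libraries, and only 2.27% of the 3877 genes with a mean FPKM of at least 10 had a smaller one. Irx3 varied by 43.7% and Sox18 by 34.5%, above 96.2% and 92.4% of those genes. This spread over 6 libraries includes the difference between the chows, which was used in choosing the factors, so the ranks are a description. Within the groups, Irx3 was at 24.1 ± 1.54 FPKM without bezafibrate and 11.1 ± 4.45 FPKM with it (SD, n = 3 each). Sox7 (24.2%) and Fli1 (17.6%) were above the median gene of 14.9%, while Ets1 (14.2%), Erg (11.7%), Foxq1 (11.5%) and Sox17 (11.5%) were below it.

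For each of the 3 ETS factors, the bezafibrate and untreated groups overlapped. Erg, which maintains adult endothelium, was at 79.1, 69.8 and 64.4 FPKM in bezafibrate libraries F_1, M_1 and M_2, against 72.8, 80.2 and 89.6 FPKM in untreated F_1, F_2 and M_1. The groups overlapped, with untreated M_1 highest and bezafibrate M_2 lowest, and the log2 difference was -0.18 (SE 0.15). It was -0.11 without untreated M_1, -0.12 without bezafibrate M_2 and -0.07 after rescaling to TPM, and it was 0.05 within females and -0.41 within males. Fli1, the closest relative of Erg, was at 41.6, 34.0 and 35.6 FPKM in bezafibrate libraries and 52.7, 39.8 and 34.9 FPKM in untreated ones. Untreated F_1 alone was far above the rest, the log2 difference was -0.18 (SE 0.18), and it was -0.01 without that library and -0.30 without untreated M_1. Ets1, a factor active in angiogenesis, was at 27.9, 31.5 and 29.2 FPKM in bezafibrate libraries and 33.6, 33.7 and 22.5 FPKM in untreated ones. It averaged 29.5 ± 1.84 FPKM with bezafibrate and 30.0 ± 6.42 FPKM without (SD, n = 3 each), the untreated group enclosed the bezafibrate one, and untreated M_1 was lowest of all. The log2 difference was -0.26 within females and 0.41 within males.

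The 3 SOXF factors had differences of either sign, and in each the groups overlapped. Sox17, a driver of arterial fate, was at 148, 136 and 166 FPKM in the bezafibrate libraries (F_1, M_1, M_2), and at 130, 128 and 163 FPKM in untreated F_1, F_2 and M_1. Ranges overlapped, and the log2 difference of 0.10 (SE 0.16) ran between 0.03 and 0.22 with 1 library left out. It was 0.20 within females and -0.11 within males. Sox18, mutated in the ragged mouse and needed for lymphatic vessels, was at 368, 332 and 399 FPKM in bezafibrate libraries, against 143, 234 and 433 FPKM in untreated ones. All 3 bezafibrate libraries lay together, while the untreated ones were spread on both sides of them, and untreated M_1 was the highest of the 6. Group means were 366 ± 33.4 FPKM with bezafibrate and 270 ± 148 FPKM without (SD, n = 3 each), and the log2 difference of 0.58 (SE 0.36) was 0.20 without untreated F_1 and 0.99 without untreated M_1. It was 1.00 within females and -0.25 within males, and 0.38 with sex as a covariate. Sox7, a vascular factor that overlaps in role with both, was at 85.8, 44.2 and 59.5 FPKM in bezafibrate libraries and 74.5, 78.3 and 90.7 FPKM in untreated ones. Bezafibrate F_1 and untreated M_1, the libraries that stand apart, were its highest values, as they were lowest for Ets1. Such a placing of both at one end was seen in 32.1% of all genes tested. The log2 difference of Sox7 was -0.40 (SE 0.24), -0.65 without bezafibrate F_1 and -0.18 without bezafibrate M_1. It was 0.17 within females and -0.81 within males.

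The forkhead pair had small differences between the chows. Foxf2 had 129, 119 and 124 FPKM in the bezafibrate libraries, against 137, 130 and 136 FPKM in untreated F_1, F_2 and M_1. Its groups did not overlap, but the difference was small, -0.12 on the log2 scale (SE 0.12), and rescaling to TPM brought it to -0.0022, quantile scaling to -0.01. Foxq1, whose gene starts 69.7 kb from that of Foxf2, was at 79.1, 63.9 and 86.6 FPKM in bezafibrate libraries and 68.8, 76.1 and 84.3 FPKM in untreated ones. Those groups overlapped, with means of 76.5 ± 11.6 FPKM with bezafibrate and 76.4 ± 7.77 FPKM without (SD, n = 3 each). The log2 difference of Foxq1 was 0.13 within females and -0.18 within males.

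Irx3 had the greatest difference between the chows of the 9 and lay lower with bezafibrate. Its level was 16.2, 7.88 and 9.32 FPKM in the bezafibrate libraries (F_1, M_1, M_2), against 23.7, 22.8 and 25.8 FPKM in untreated F_1, F_2 and M_1, resting on 463 to 806 reads with bezafibrate and 1123 to 1324 without. Every bezafibrate library was below every untreated one, and the female one stood between the 2 male ones and the untreated group. Means were 11.1 ± 4.45 FPKM with bezafibrate and 24.1 ± 1.54 FPKM without (SD, n = 3 each), a ratio of 0.462 and a log2 difference of -1.11 (SE 0.24). Within the sexes, which hold 1 library against 2 or 2 against 1, the log2 difference was -0.49 in females and -1.49 in males, and it was -0.99 with sex as a covariate. Without bezafibrate F_1 and untreated M_1 it was -1.34, but this sets 2 male bezafibrate libraries against 2 female untreated ones, so chow and sex cannot be told apart there. In bulk samples, fewer cells that make a transcript and less of it per cell cannot be told apart. Before rescaling, all marker lists with more than 1 gene tested, except the ependymal and choroid plexus list, had most genes lower with bezafibrate. These included 9 of 10 endothelial, 7 of 8 pericyte, 4 of 5 smooth muscle and 3 of 4 microglia markers. The 1 neuron marker tested was higher. Oligodendrocyte markers, all 7 tested lower, summed to 89.6 to 102 FPKM in bezafibrate libraries and 92.9 to 151 FPKM in untreated ones. Ependymal and choroid plexus markers, all 6 tested higher, summed to 408 to 941 FPKM with bezafibrate and 360 to 403 FPKM without. Most of the ependymal and choroid plexus sum was Ttr, at 397, 540 and 919 FPKM in bezafibrate F_1, M_1 and M_2 and 349 to 389 FPKM in untreated libraries. The other tested markers of that list averaged at most 3.4 FPKM in either group. Astrocyte markers, all 7 tested lower, summed to 25.2 to 47.3 FPKM with bezafibrate and 39.4 to 58.4 FPKM without. The part of any of these cells in the Irx3 value was not tested.

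**Figure D3:**
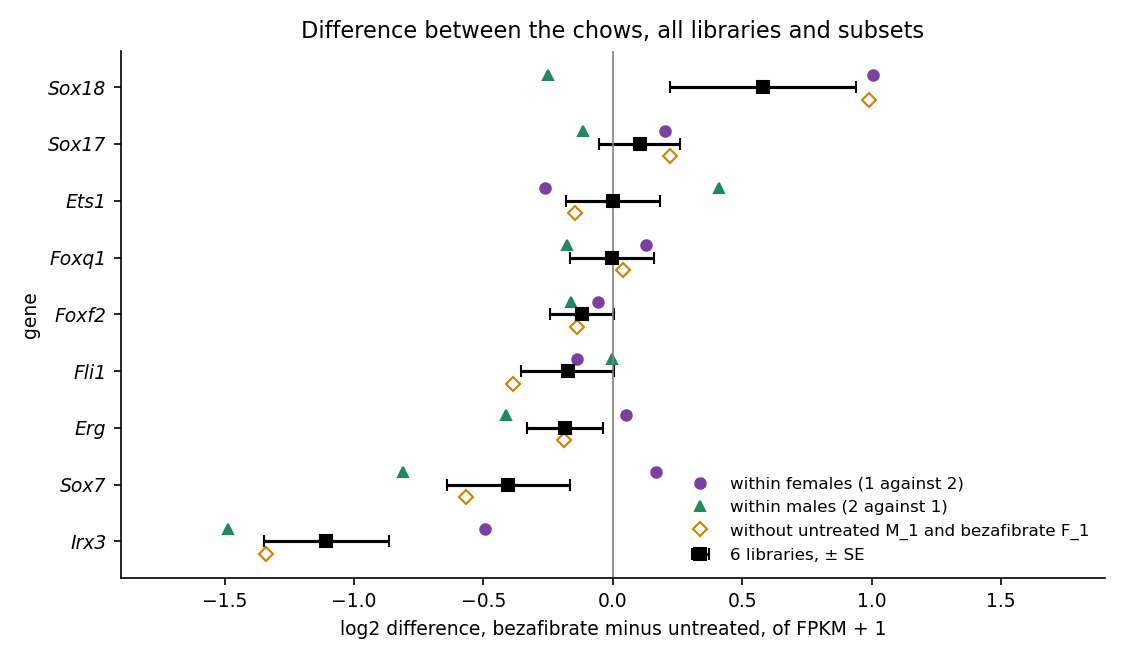
Log2 difference of FPKM + 1, bezafibrate minus untreated, for each factor: squares, all 6 libraries ± SE; circles and triangles, within females and within males; open diamonds, without untreated M_1 and bezafibrate F_1, where bezafibrate libraries are all male and untreated ones all female. Irx3 lies left of 0 in each of the 4 marks (-0.49 to -1.49), while Sox18 is at 1.00 within females and -0.25 within males. As the groups of Irx3 did not overlap, no subset of libraries could place it right of 0.

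Read against all genes, these differences have a plain setting. The limma fit called 1 of 11277 genes at an adjusted p under 0.05 for bezafibrate minus untreated, or 0.00887%, and this gene was not among the 9. Without adjustment, p was under 0.05 for 4.19% of all genes, and no such p is given for the 9, whose choice used this contrast. Non-overlapping groups with bezafibrate lower were found in 4.13% of the tested genes and in 2 of the 9 factors, Irx3 and Foxf2, and with bezafibrate higher in 4.29% and in 0 of the 9 (either way, 8.42%). Nothing is read from those counts, for the same reason. The median log2 difference of all genes was -0.0091, and 0.10 after rescaling to TPM. Of all genes tested, 5432 were higher and 5845 lower with bezafibrate before rescaling. The counts and medians by gene list given below are also before rescaling, and the direction of a list was not tested.

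A contrast that played no part in the choice is that of male against female libraries, fitted with chow as a covariate. Limma called 3 genes there, or 0.0266% (Xist, Ddx3y and Eif2s3y), and 0 of the 9 factors, each with an adjusted p of 0.9999. Without adjustment, p was under 0.05 for 0 of the 9 and for 2.94% of all genes. Limma-voom called 4 of 11277 genes and 0 of the 9. The unadjusted limma-voom p was under 0.05 for 1 of the 9, Sox18, and for 1.48% of all genes. Sox18 was at 388 ± 51.4 FPKM in males and 248 ± 113 FPKM in females (SD, n = 3 each; log2 difference 0.61, SE 0.34). That difference rested on single libraries, at -0.02 without untreated M_1 and 1.24 without bezafibrate F_1. Irx3 averaged 14.3 ± 9.96 FPKM in males and 20.9 ± 4.09 FPKM in females (log2 difference -0.35, SE 0.24), and the male libraries were 7.88 and 9.32 FPKM with bezafibrate and 25.8 FPKM without. The sex difference of Irx3 was 0.14 without bezafibrate F_1 and -0.85 without untreated M_1. Fli1 averaged 34.8 ± 0.765 FPKM in males and 44.7 ± 7.01 FPKM in females (log2 difference -0.32, SE 0.17), and its groups were the only ones among the 9 not to overlap, against 7.94% of all genes in either direction.

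The effect of bezafibrate in males minus that in females was -0.99 for Irx3 (limma interaction term, adjusted p = 0.113), -0.98 for Sox7 (adjusted p = 0.159) and -1.25 for Sox18 (adjusted p = 0.188) on the log2 scale. For Ets1 it was 0.68 (adjusted p = 0.190). Limma called 75 genes here, or 0.665%, and 0 of the 9 factors, although 4 of the 9 had an unadjusted p under 0.05, against 21.3% of all genes. Limma-voom called 1084 genes, or 9.61%, and 1 of the 9 factors, Ets1 (adjusted p = 0.0272), which is near that share. This contrast sets untreated M_1 and bezafibrate F_1 against the other libraries, so a difference between the sexes cannot be told apart from those libraries, which also stand apart on the first principal component. They also had the highest summed FPKM, 322934 and 308365, against 254277 to 302691 in the other libraries. The limma terms above were not rescaled to equal sums, so this offset is part of each of them.

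Of 24 further ETS genes, 12 were tested: 5 were higher and 7 lower with bezafibrate, and limma called 0, with 1 at an unadjusted p under 0.05 and a median of -0.08. That gene was Elf2, an ETS factor expressed in many tissues, at 16.2, 12.6 and 11.5 FPKM in bezafibrate libraries and 16.5, 17.6 and 19.5 FPKM in untreated ones. Of the most abundant, Elk3, a repressor of the ternary complex group, averaged 39.4 ± 4.90 FPKM with bezafibrate and 34.0 ± 3.29 FPKM without. Erf, another repressor, averaged 27.8 ± 4.31 FPKM with bezafibrate and 23.7 ± 3.76 FPKM without. Ets2, the paralog of Ets1, averaged 22.5 ± 2.40 FPKM with bezafibrate and 27.4 ± 5.85 FPKM without (SD, n = 3 each).

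Of 16 further Sox genes, 6 were tested, 4 higher and 2 lower, with limma calling 0, none at an unadjusted p under 0.05, and a median of 0.07. Sox13 was the most abundant of them, at 44.5, 41.6 and 38.2 FPKM in bezafibrate libraries and 34.9, 31.7 and 41.5 FPKM in untreated ones, which overlapped. Sox9, Sox4 and Sox2, better known from progenitor cells and glia, averaged 2.71 to 5.53 FPKM with bezafibrate and 2.41 to 5.19 FPKM without.

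Of 42 further forkhead genes, 16 were tested, 6 higher and 10 lower, with limma calling 0, 1 at an unadjusted p under 0.05, and a median of -0.06. Foxl2, best known from the ovary, was that gene, at 16.5, 16.6 and 16.4 FPKM in bezafibrate libraries and 8.89, 12.4 and 12.4 FPKM in untreated ones (log2 difference 0.54). Foxf1, the paralog of Foxf2 and a regulator of lung vessels, was the most abundant, at 158, 44.7 and 61.6 FPKM with bezafibrate and 127, 122 and 216 FPKM without. Its highest values were again bezafibrate F_1 and untreated M_1. The log2 difference of Foxf1, -0.97 (SE 0.45), sits beside -0.12 for Foxf2, with which it is paired in the stretches above. Foxc1 averaged 65.3 ± 6.14 FPKM with bezafibrate and 58.8 ± 9.76 FPKM without, and Foxo4, a target of insulin signalling, 20.5 ± 4.85 FPKM with and 23.2 ± 0.520 FPKM without it (SD, n = 3 each).

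Irx3 stood nearly alone among Iroquois genes, and 0 of the 6 relatives listed passed the filter on low values. Irx5 shares the gene cluster of Irx3 and is paired with it in the stretches above. In bezafibrate F_1, M_1 and M_2, Irx5 was at 0.462, 0.211 and 0.102 FPKM. Untreated F_1, F_2 and M_1 had 1.24, 0.503 and 0.930 FPKM. Those values rest on 26, 14 and 6 reads with bezafibrate and 78, 28 and 54 reads without, and every bezafibrate value was below every untreated one. Irx1 had 7 reads in 1 untreated library, Irx2 had 9 reads in 1 bezafibrate library, and Irx4 and Irx6 had 0 in all. The homeobox gene Mkx was at 0.123 FPKM at most.

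Other endothelial transcription factors, a list of 32 with 28 tested, had 10 higher and 18 lower with bezafibrate, limma called 0, and the median was -0.08. Both genes at an unadjusted p under 0.05 were lower. Tbx3, a T-box repressor, was at 48.7, 37.2 and 34.4 FPKM in bezafibrate libraries and 62.7, 59.6 and 45.2 FPKM in untreated ones. Meox1, a homeobox factor, averaged 5.73 ± 3.72 FPKM with bezafibrate and 13.2 ± 6.55 FPKM without (SD, n = 3 each). The flow-responsive Klf2 averaged 1649 ± 149 FPKM with bezafibrate and 1947 ± 228 FPKM without. Epas1, which encodes a hypoxia-inducible factor, averaged 969.8 ± 165 FPKM with bezafibrate and 982 ± 119 FPKM without.

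Genes described as targets of these factors also had no calls by limma. Of 21 targets of ETS factors, 20 were tested, 2 higher and 18 lower, 0 at an unadjusted p under 0.05, and the median was -0.13. Over all genes tested, 5432 were higher and 5845 lower, and rescaling to TPM raised the median from -0.0091 to 0.10. Whether the targets moved together was not tested. The tight-junction gene Cldn5, which belongs to the barrier and SOXF lists too, was at 1206, 774 and 783 FPKM in bezafibrate libraries and 1010, 1386 and 1154 FPKM in untreated ones, overlapping. Eng, a co-receptor of TGF-beta, averaged 629 ± 164 FPKM with bezafibrate and 722 ± 176 FPKM without. Esam, an adhesion molecule, averaged 377 ± 73.8 FPKM with bezafibrate and 409 ± 90.9 FPKM without, and Flt1, a VEGF receptor, 331 ± 70.7 FPKM with it and 391 ± 33.8 FPKM without (SD, n = 3 each). All 14 SOXF targets were tested, 4 higher and 10 lower, 0 at an unadjusted p under 0.05, with a median of -0.15. Acvrl1, a BMP receptor, averaged 292 ± 101 FPKM with bezafibrate and 336 ± 95.8 FPKM without. Robo4, a receptor that stabilises vessels, averaged 164 ± 68.4 FPKM with bezafibrate and 200.3 ± 55.2 FPKM without, and Notch4 68.6 ± 14.1 FPKM with it and 68.8 ± 12.4 FPKM without.

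The barrier list of 24 genes, all tested, had 7 higher and 17 lower, 0 called by limma, 1 at an unadjusted p under 0.05, and a median of -0.07. Palmd was that gene, at 45.8, 33.6 and 39.6 FPKM in bezafibrate libraries and 50.7, 55.1 and 50.7 FPKM in untreated ones, with no overlap. The abundant Bsg, a chaperone of lactate transporters, averaged 4183 ± 253 FPKM with bezafibrate and 4466 ± 551 FPKM without, Slc2a1, the glucose transporter, 3815 ± 1364 FPKM with it and 4447 ± 1297 FPKM without, and Itm2a 1584 ± 186 FPKM with it and 1888 ± 287 FPKM without. Of 14 genes of mesenchymal transition, 11 were tested, 3 higher and 8 lower, with 0 called, 0 at an unadjusted p under 0.05 and a median of -0.13. Fn1, which encodes fibronectin, averaged 327 ± 89.9 FPKM with bezafibrate and 364 ± 37.6 FPKM without, and Vim, an intermediate filament gene, 293 ± 52.6 FPKM with it and 336 ± 88.5 FPKM without. Tgfbr2, a TGF-beta receptor, averaged 66.5 ± 10.3 FPKM with bezafibrate and 58.6 ± 10.6 FPKM without, and Acta2, smooth muscle actin, 63.6 ± 15.8 FPKM with it and 58.2 ± 12.3 FPKM without (SD, n = 3 each).

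Likeness of pattern was measured as the root mean square difference of log2(FPKM + 1), each gene centred on its mean over the 6 libraries. For Irx3, whose own deviation was 0.626, the most alike were Fosl2, an AP-1 factor (0.152), Dusp5, a phosphatase of ERK (0.157), Cdc42ep3 (0.158), Cfap43 (0.163) and Slc25a25 (0.168), a mitochondrial carrier. Fosl2 was at 32.5, 17.2 and 20.6 FPKM in the bezafibrate libraries (F_1, M_1, M_2), against 54.8, 43.3 and 42.4 FPKM in untreated F_1, F_2 and M_1, and Dusp5 at 10.6, 5.76 and 7.27 FPKM with bezafibrate and 14.7, 13.1 and 15.9 FPKM without. In both, the male bezafibrate libraries were lowest and the female one stood between them and the untreated group, as in Irx3. Both genes were picked for their likeness to Irx3 over these same libraries, so the shared order follows from the choice. Cdc42ep3 was at 82.3, 30.7 and 45.2 FPKM with bezafibrate and 90.2, 92.4 and 117 FPKM without. For the other 8 factors the closest genes, none of them among the 9, were Khdrbs1 (Erg), Ets2 (Fli1), Tnrc6b (Ets1), Trp53inp2 (Sox7), Ctsd (Sox17), Gnrh1 (Sox18), Flot2 (Foxf2) and Csnk2b (Foxq1), at 0.0138 to 0.149.

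**Figure D4:**
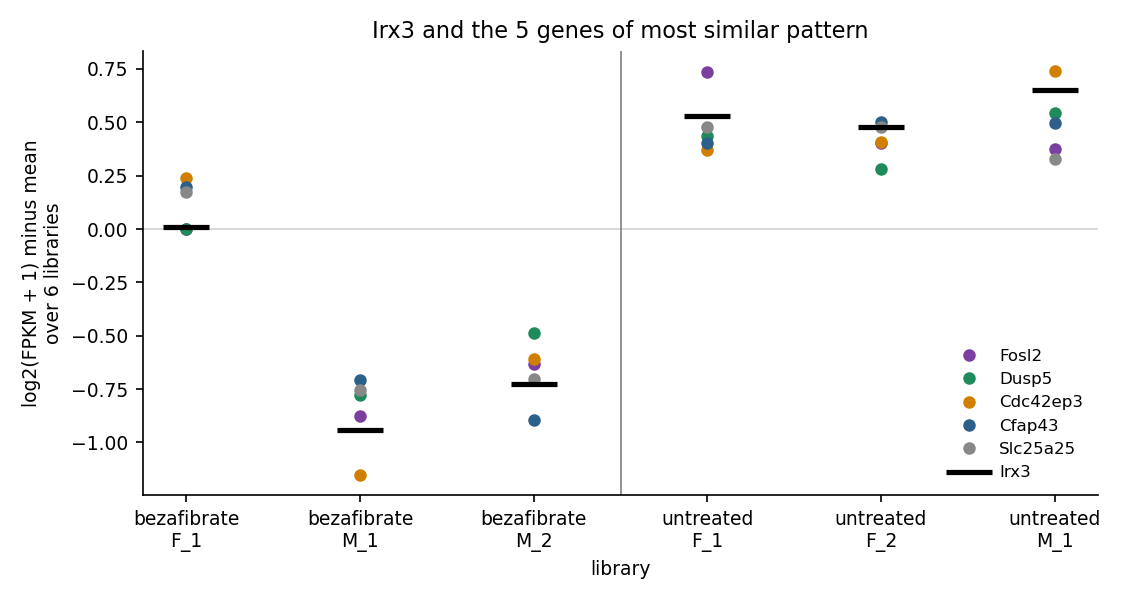
Irx3 (black bars) and the 5 genes of most similar pattern (points), as log2(FPKM + 1) minus the gene's mean over 6 libraries. Bezafibrate M_1 and M_2 are lowest in each of the 6 genes, with bezafibrate F_1 between them and the untreated libraries. The 5 genes were picked for this likeness, so the shared order follows from the choice.

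Most genes around the factors did not pass the filter on low values. Within 250 kb of a start lay 94 other genes, 19 of them tested, with 11 higher and 8 lower with bezafibrate, limma calling 0 and a median of 0.04. Polr3k, a subunit of RNA polymerase III near Sox18, was the 1 gene at an unadjusted p under 0.05, at a log2 difference of 0.39. Fli1 and Ets1 start 93.4 kb apart, and Ets2 lies 115 kb from Erg. None of the 15 genes around Irx3 was tested. In the table's GRCm38 coordinates, the ETS genes are Erg (gene ID ENSMUSG00000040732) at chr16:95359169-95586593 on the minus strand, Fli1 (gene ID ENSMUSG00000016087) at chr9:32422204-32542861 on the minus strand and Ets1 (gene ID ENSMUSG00000032035) at chr9:32636221-32757820 on the plus strand. The SOXF genes are Sox7 (gene ID ENSMUSG00000063060) at chr14:63943673-63950732 on the plus strand, Sox17 (gene ID ENSMUSG00000025902) at chr1:4490931-4497354 on the minus strand and Sox18 (gene ID ENSMUSG00000046470) at chr2:181669836-181671640 on the minus strand. The remaining genes are Foxf2 (gene ID ENSMUSG00000038402) at chr13:31625816-31631403 on the plus strand, Foxq1 (gene ID ENSMUSG00000038415) at chr13:31556134-31560976 on the plus strand and Irx3 (gene ID ENSMUSG00000031734) at chr8:91798525-91802067 on the minus strand.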

How the data were processed

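The deposited table holds FPKM per gene, made by the authors; per the labels' protocols, libraries were SMART-Seq HT cDNA with Nextera XT indexes, read single-end at 75 bases, and Salmon mapped the reads after de-duplication. The genome build is GRCm38 per the submitters' processing notes. The sources used here do not state the counting annotation, strand use or normalisation. FPKM times gene length gave whole multiples of 1 step per library (100% of values within 0.01 reads), from which whole reads were recovered.

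Values were analysed as log2(FPKM + 1), a scale that understates the change of low genes, keeping genes that reached an FPKM of 1 in 3 or more libraries, with limma 3.58.1 in R 4.3.3 (eBayes with a trend, two-sided, Benjamini-Hochberg over all 11277 genes, adjusted p under 0.05 called). Genes named are the 9 factors; of each list the called genes, those at an unadjusted p under 0.05 and then the most abundant until 4; the genes of closest pattern; and tested genes within 250 kb. The factors, lists and tests were chosen with earlier results of these data known. The library named M_1 of the untreated group was matched to its column through its description. An exact permutation test of 3 against 3 libraries cannot give a two-sided p under 0.1. Alternatives were pseudocount, filter, TPM and quantile scaling, limma-voom on recovered reads, array weights, sex as a covariate, a replicate block and leaving out libraries.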

Additional observations from a re-analysis of the deposited data

How the results depend on the processing

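The count of genes called for bezafibrate minus untreated, 1, was 0 with limma-voom, 0 with a replicate block, 0 without both untreated M_1 and bezafibrate F_1 (male bezafibrate against female untreated libraries), and 0 to 3 when 1 library was left out (3 without bezafibrate F_1: Akap12, Kdm6b and Tnfrsf10b; 0 without bezafibrate M_1 or M_2). For male minus female, 3 genes were called, and 1 to 4 with 1 library left out; without both libraries this contrast could not be estimated. For the difference of effect between the sexes, 75 genes were called, against 478 with no filter, 571 with FPKM of at least 5, 222 after TPM, 1 after quantile scaling and 1084 with limma-voom, chosen after seeing the data. The causes were not tested.

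Irx3 kept its sign in 17 of 17 alternative fits (-1.39 to -0.91), and was -0.49 within females and -1.49 within males. All 9 factors were chosen with bezafibrate minus untreated known, and the groups of Irx3 did not overlap. Leaving libraries out or staying within 1 sex therefore could not turn the sign of Irx3. No support for that contrast is drawn from kept signs. Over the 9 factors, 142 of 153 alternative differences kept their sign; the 11 others were of Ets1, Sox17 and Foxq1. That tally leaves out the values within 1 sex. There the sign turned for Erg (0.05), Sox7 (0.17), Foxq1 (0.13) and Ets1 (-0.26) in females and for Sox17 (-0.11) and Sox18 (-0.25) in males. Those values were not rescaled. The FPKM of all genes summed to 254277 and 277379 in bezafibrate M_1 and M_2, against 322934 in untreated M_1. In females the sum was 308365 with bezafibrate and 284201 and 302691 without. Whether the turned signs hold after rescaling was not tested. In the male-minus-female contrast 119 of 135 alternative differences kept their sign, and the factors stayed uncalled, with a smallest adjusted p of 0.145. The names F_1 and M_1 do not pair the groups: deviations of same-named libraries correlated at -0.363 and -0.299, and the replicate block gave Irx3 -1.06. In the level order 6 to 9 of the 9 factors held the same rank with 1 library left out, and 9 did after TPM or quantile scaling.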
